A study of Mus musculus with 18 samples.

Results

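The miR-99/100 and miR-125 families were described by 7 mature miRNAs, 5 of them guide arms (mmu-miR-99a-5p, mmu-miR-99b-5p, mmu-miR-100-5p, mmu-miR-125a-5p and mmu-miR-125b-5p) and 2 passenger arms (mmu-miR-99a-3p and mmu-miR-125b-2-3p), written below without the mouse prefix. They were taken by name from a small RNA read count table of mouse kidney, in which 8 of 1184 named entries carried these 7 names, out of 902 different names. The list was chosen by family with earlier results of the same comparisons in view, namely the log2 fold changes of miR-99a-3p against control and of miR-125b-2-3p in treated against untreated diabetic kidneys. Differences of the members between these groups are therefore given as a description, without p-values. Where a count or call by a threshold names a member below, nothing is read from it.

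The table held 18 libraries, 6 in each of 3 groups. Treated kidneys came from C57BL/KsJ mice with diabetic nephropathy that received 10 mg/kg/day of germacrone, a sesquiterpene found in plants. DN kidneys came from diabetic nephropathy mice of the same strain on 0.9% saline. Control kidneys came from C57BL/6J mice, also on 0.9% saline. The effects of strain and of disease cannot be told apart, since control mice differed from both other groups in each. Separate animals are not named in the labels, so the spread between libraries may be technical.

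Both families are among the oldest animal miRNAs. Mammals carry 3 copies of a cluster in which a miR-99 or miR-100 hairpin, a let-7 hairpin and a miR-125 hairpin lie on 1 strand. miR-99 and miR-100 are known to target Mtor and Igf1r, and miR-125 is the mammalian counterpart of lin-4, the developmental timing miRNA of Caenorhabditis elegans. A hairpin yields 2 arms: the guide is usually kept in an Argonaute protein, and the passenger is usually degraded, so the ratio of the arms reads out more than transcription alone.

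The sequences of the 5 guides show which of them a read can tell apart. They are given 5′ to 3′ with the seed, bases 2 to 8, in capitals (RefSeq, GRCm38.p6, in which all 7 members were found).
miR-99a-5p: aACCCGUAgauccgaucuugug
miR-100-5p: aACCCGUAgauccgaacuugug
miR-99b-5p: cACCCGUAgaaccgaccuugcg
miR-125b-5p: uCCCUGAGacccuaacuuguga
miR-125a-5p: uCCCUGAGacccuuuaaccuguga
Counted from 1 at the 5′ end, miR-99a-5p and miR-100-5p differ by 1 base, U16A. From miR-99a-5p to miR-99b-5p there are 4 substitutions, A1C, U11A, U16C and U21C. The first 13 bases are shared by miR-125b-5p and miR-125a-5p. Among 1679 mouse mature miRNA names searched, the seed ACCCGUA belonged to these 3 miR-99/100 guides alone. The seed CCCUGAG belonged to 5 names, both miR-125 guides, miR-351-5p, miR-6367 and miR-6394, of which the X-linked miR-351-5p was the only one beside the members to stand in the table.

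The passenger arms carry other seeds, and their full sequences are shown because each comes from a single hairpin, which is not so of miR-125b-5p.
miR-99a-3p: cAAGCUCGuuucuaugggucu
miR-99b-3p: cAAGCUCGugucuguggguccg
miR-125b-2-3p: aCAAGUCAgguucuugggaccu
miR-125b-1-3p: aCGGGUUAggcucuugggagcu
miR-99a-3p shares its seed with miR-99b-3p, whereas miR-125b-2-3p and miR-125b-1-3p each had a seed of their own among the names searched. The hairpin of miR-99a is shown because its arms gave the largest contrast among the members, with both arms in capitals (plus strand, chr16:77598936-77599000).
Mir99a: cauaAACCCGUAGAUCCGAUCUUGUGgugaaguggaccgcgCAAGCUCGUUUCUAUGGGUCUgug

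The members come from 3 loci, all on the plus strand. Mir99a, Mirlet7c-1 and Mir125b-2 span 47.4 kb at chr16:77598940-77646339 in introns of the noncoding gene Mir99ahg. Mir100, Mirlet7a-2 and Mir125b-1 span 50.6 kb at chr9:41531437-41582001 in introns of the noncoding gene 3110039I08Rik, where the miR-100 arms also overlap an exon of the antisense lincRNA Gm48742 and the miR-125b-1 arms an exon of Gm28119. Mir99b, Mirlet7e and Mir125a span 0.7 kb at chr17:17830194-17830876 within the protein-coding gene Spaca6, where miR-125a overlaps an exon of at least 1 transcript and the others are intronic (GENCODE M21). The mature sequence miR-125b-5p is encoded at both chr16:77646279-77646300 and chr9:41581940-41581961.

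The count table did not resolve all 7 names. The entries of miR-99a-5p and miR-100-5p were equal in every one of the 18 libraries, so they are 1 measurement, and nothing in the table tells these paralogs apart. miR-125b-5p stood on 2 entries, which were equal as well. The miR-99a-5p value was not a whole number in 8 libraries and the miR-125b-5p value in 12, while the sum of the 2 equal entries was whole in each library. The counts of miR-99b-5p, miR-125a-5p, miR-99a-3p and miR-125b-2-3p were whole throughout. The 7 names thus gave 6 different sets of counts, and a level of miR-99a-5p, miR-100-5p or miR-125b-5p below is that of 1 of its 2 equal entries.

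Library totals ran from 3653794 to 5969386 counts in treated, 3639788 to 7236245 in DN and 3699169 to 6652699 in control libraries. All 5 kidney miRNAs of a marker list (miR-192-5p, miR-204-5p, miR-194-5p, miR-30a-5p and miR-10a-5p) were detected in every library, with a summed level of 130200 to 182900 CPM (library-scaled counts, with TMM factors) in treated, 45320 to 168900 in DN and 86330 to 136100 in control libraries. DN 2 stood apart: its median correlation with its own group was 0.896, and it was the DN library with the lowest kidney sum. DN 3, at 0.926, and control 2, at 0.946, came next. The 6 leukocyte markers summed to 23150 CPM in DN 2, against at most 1906 in the other DN libraries, 1472 to 8492 in treated and 2789 to 3708 in control libraries. The 3 striated muscle markers summed to 51.4 to 124 CPM in treated, 42.2 to 108 in DN and 76.4 to 298 in control libraries, with miR-206-3p at 0 in 6 of the 18. The 2 endothelial markers summed to 16220 to 25980 CPM in treated, 8007 to 23320 in DN and 9172 to 24130 in control libraries. The 7 markers of smooth muscle, mesangial cells, pericytes and fibroblasts summed to 43330 to 63220 CPM in treated, 24410 to 54160 in DN and 28530 to 61250 in control libraries. Both of these sums reached their highest value in a treated library, as did the kidney sum. So did the sum of 3 red blood cell markers (1295 to 5226 CPM in treated, 1251 to 4189 in DN and 1802 to 3869 in control libraries). The leukocyte sum was highest in a DN library and the striated muscle sum in a control library, control 4. The liver marker miR-122-5p was at 5.58 to 42.9 CPM in treated, 5.80 to 118 in DN and 8.03 to 46.1 in control libraries. For nerve, adrenal gland and islet, 4 markers summed to 550 to 768 CPM in treated, 429 to 648 in DN and 353 to 973 in control libraries. The last maximum was also control 4. The shared miR-99a-5p and miR-100-5p entry was highest in treated 3 (13510 CPM) and miR-125b-2-3p in treated 5 (238 CPM). The highest library alone does not describe a group. The part of these cell types in the differences below was not tested. In whole kidney, fewer cells of a type and less miRNA per cell cannot be told apart.

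Guide arms were abundant, and their groups overlapped. The shared miR-99a-5p and miR-100-5p entry ran from 8438 CPM to 13510 CPM with a median of 10050 CPM in treated kidneys, from 7111 to 11510 with a median of 8095 in DN, and from 6168 to 11750 with a median of 9852 in control. Every treated library lay above the DN median, although the ranges crossed. The means were 10550 ± 2080 CPM in treated, 8681 ± 1667 in DN and 9385 ± 1960 in control kidneys (SD, n = 6 each). The log2 fold change (log2FC) was 0.28 in treated against DN (SE 0.173, 95% interval −0.081 to 0.64), −0.11 in DN against control (SE 0.173) and 0.17 in treated against control (SE 0.173). The last of these was −0.047 when only library size was used for scaling.

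miR-99b-5p, the chromosome 17 member of the same seed family, averaged 6146 ± 1339 CPM in treated, 6364 ± 1886 in DN and 6238 ± 2332 in control kidneys (SD, n = 6 each). Its widest spread was in control, from 4213 CPM to 10790 CPM in control 2. The log2FC was −0.050 in treated against DN (SE 0.230), 0.029 in DN against control (SE 0.230) and −0.021 in treated against control (SE 0.230). These 3 differences were smaller than their standard errors. Without control 2 the values were −0.082, 0.32 and 0.24, and without control 2, DN 2 and DN 3 treated against DN gave 0.20. With only library size used for scaling, DN against control gave −0.036. Within the family, miR-99b-5p supplied 22.6 ± 3.65% of the guide counts in treated, 27.0 ± 7.70% in DN and 25.0 ± 6.96% in control libraries, and miR-99a-5p with miR-100-5p the rest.

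miR-125b-5p had a median of 2228 CPM in treated (1924 to 2820), 2146 in DN (1978 to 3447) and 2517 in control libraries (2239 to 4313). Its highest control value, again in control 2, lay apart from the other controls, of which the next was 2707 CPM. The log2FC was −0.070 in treated against DN (SE 0.186), −0.18 in DN against control (SE 0.186) and −0.25 in treated against control (SE 0.186). Without control 2 these were −0.10, 0.060 and −0.042, and without control 2, DN 2 and DN 3 treated against DN gave 0.15.

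miR-125a-5p, its paralog in Spaca6, had a median of 1796 CPM in treated (1548 to 2149), 1660 in DN (1163 to 2843) and 1908 in control libraries (1367 to 3227). Its coefficient of variation was 11.1% in treated, 31.8% in DN and 33.0% in control. The log2FC was −0.0037 in treated against DN (SE 0.218), −0.16 in DN against control (SE 0.218) and −0.16 in treated against control (SE 0.218). Without control 2 the comparisons with control gave 0.082 in DN and 0.041 in treated. Treated against DN gave 0.14 without DN 3 and 0.27 without control 2, DN 2 and DN 3. With the 2 equal miR-125b-5p entries summed, miR-125a-5p made up 28.3 ± 2.38% of the counts of both miR-125 guides in treated, 27.1 ± 4.34% in DN and 26.8 ± 3.69% in control libraries. miR-351-5p, which has the same seed, was at 219 ± 33.6 CPM in treated, 206 ± 74.4 in DN and 166 ± 71.8 in control kidneys, and all 6 treated libraries lay above the control median.

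**Figure D1:**
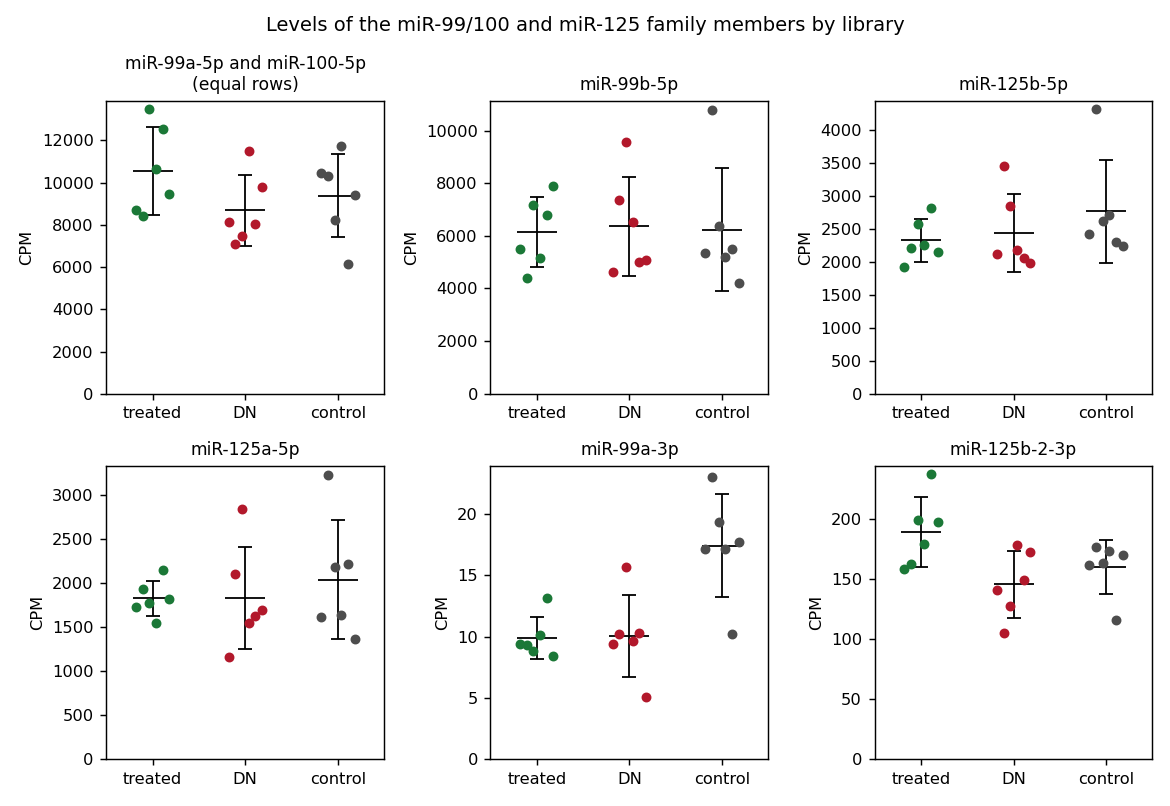
CPM (y axis, linear from 0) of the 6 different member count sets in each of 6 libraries per group, treated, DN and control from left to right; points are libraries, the wide bar is the mean and the error bar the SD. The guides overlap between groups, with control 2 highest for miR-99b-5p at 10790 CPM, while for miR-99a-3p every control library but control 5 lies above all treated and DN libraries.

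The passenger arm miR-99a-3p was the member whose level differed most in both comparisons with control. It ran from 8.46 to 13.1 CPM with a median of 9.36 in treated, from 5.10 to 15.7 with a median of 9.90 in DN, and from 10.2 to 23.1 with a median of 17.4 CPM in control libraries. All 6 treated and all 6 DN libraries lay below the control median, and the groups overlapped because control 5, at 10.2 CPM, lay below treated 5, DN 3 and DN 5. These levels rest on few reads: 28 to 70 counts per library in treated, 25 to 72 in DN and 42 to 170 in control. The means were 9.87 ± 1.70 CPM in treated, 10.1 ± 3.39 in DN and 17.4 ± 4.18 in control kidneys (SD, n = 6 each). The log2FC was −0.80 in DN against control (SE 0.257, 95% interval −1.33 to −0.26), −0.82 in treated against control (SE 0.257, −1.36 to −0.28) and −0.024 in treated against DN (SE 0.259, −0.57 to 0.52). The first and second of these share the control libraries. Without control 2, DN 2 and DN 3 they were −0.94 and −0.74, and 0.20 in treated against DN.

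The other passenger, miR-125b-2-3p, comes from the same chromosome 16 locus. It ran from 159 to 238 CPM with a median of 189 in treated, from 105 to 179 with a median of 145 in DN, and from 116 to 177 with a median of 166 CPM in control libraries. All 6 treated libraries lay above the DN median, and the lowest DN library was DN 2 at 105 CPM. The means were 189 ± 29.3 CPM in treated, 146 ± 27.7 in DN and 160 ± 22.6 in control kidneys (SD, n = 6 each). The log2FC was 0.38 in treated against DN (SE 0.172, 95% interval 0.019 to 0.74), −0.14 in DN against control (SE 0.172) and 0.24 in treated against control (SE 0.172). Without control 2, DN 2 and DN 3 the value in treated against DN was 0.23.

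Across the whole table the edgeR quasi-likelihood test called 0 of 619 entries in each comparison, a background of 0%, and 0 of the 7 members, all of which passed the filter on low counts. At an unadjusted p under 0.05 there were 47 entries in DN against control (7.59%), 23 in treated against DN (3.72%) and 121 in treated against control (19.5%). Among them was 1 member in each comparison, miR-99a-3p in both comparisons with control and miR-125b-2-3p in treated against DN. These comparisons were known when the members were listed, so nothing is read from their count. The level of 0 of the 7 separated any pair of groups, where over all entries 22 lay higher (3.55%) and 10 lower (1.62%) without overlap in treated against control, and 0 (0%) in the other comparisons. DESeq2 called 4, 0 and 24 of the 619 entries and limma-voom with sample weights 91, 0 and 106 of 619, in the same order of comparisons. miR-99a-3p was called by limma-voom in both comparisons with control, and by DESeq2 in treated against control. Its log2FC against control was known when the members were listed, so nothing is read from these calls either. The median log2FC of the 6 different member count sets was −0.15 in DN against control, −0.014 in treated against DN and −0.091 in treated against control, beside 0.075, −0.054 and −0.0035 over all 619 entries. The fitted change was above 0 for 1 count set and below 0 for 5 in DN against control (56.5% above and 43.5% below over all entries), 2 and 4 in treated against DN (42.2% and 57.8%), and 2 and 4 in treated against control (49.8% and 50.2%). In treated against DN all 6 were above 0 without control 2, DN 2 and DN 3 (0.15 to 0.27) and with limma-voom (0.11 to 0.20). DESeq2 and scaling by library size only gave 2 above and 4 below, as in the main fit. A fit with the replicate number as a block gave 5 and 1. The share of all entries above 0 is not given for the settings with all 6 above 0, so nothing is read from that count.

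**Figure D2:**
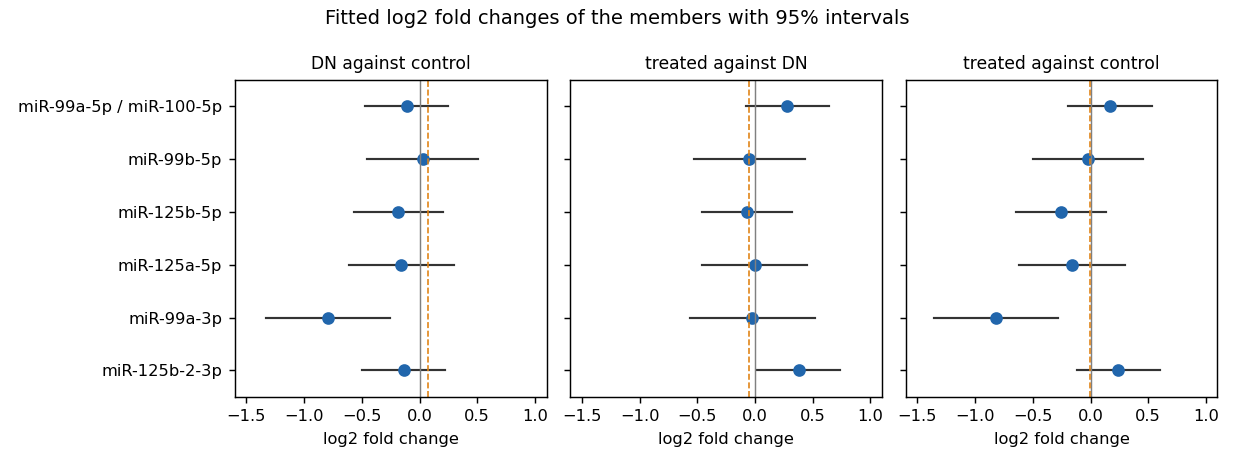
Fitted log2 fold change (x axis; points) with its 95% interval (line) for the 6 different member count sets in 3 comparisons; the grey line is 0 and the dashed line the median of all 619 entries. miR-99a-3p lies at −0.80 in DN against control and −0.82 in treated against control, and the 4 guide count sets lie between −0.25 and 0.28.

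Guide and passenger arms were then compared within each library, where library scaling cancels. The log2 ratio of miR-99a-5p to miR-99a-3p was 10.04 ± 0.281 in treated, 9.79 ± 0.688 in DN and 9.07 ± 0.268 in control libraries (SD, n = 6 each). The 6 treated libraries, from 9.80 to 10.56, all lay above the 6 control libraries, from 8.73 to 9.41, while the DN libraries, from 8.88 to 10.88, overlapped both. The difference was 0.96 in treated against control, 0.72 in DN against control and 0.24 in treated against DN, beside a spread within groups of 0.456 (pooled SD). Without control 2, DN 2 and DN 3 these were 0.91, 0.98 and −0.072. As a background, 129 hairpins had both arms past the filter, and the ratio of their major to their minor arm lay higher without overlap in 1 of them (0.775%) in treated against control, which was miR-99a, and lower without overlap in 2 (1.55%). In DN against control and in treated against DN it separated the groups in 0 of 129 (0%). The miR-99a ratio reuses the counts of miR-99a-3p, whose log2FC against control was known when the members were listed. Nothing is therefore read from its separation. Over the 129 hairpins the differences in treated against control had a median of 0.18. They ran from −1.07 at the 5th to 1.18 at the 95th percentile, so the size of the miR-99a difference lay inside the range of most hairpins. The count of the guide here is the one shared with miR-100-5p. Counting both equal entries as guide, miR-99a-3p made up 0.0477 ± 0.00843% of both arms in treated, 0.0610 ± 0.0272% in DN and 0.0935 ± 0.0177% in control libraries.

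miR-125b-2-3p was a far more abundant passenger. The log2 ratio of miR-125b-5p to miR-125b-2-3p was 3.62 ± 0.113 in treated, 4.05 ± 0.589 in DN and 4.08 ± 0.32 in control libraries (SD, n = 6 each). Treated libraries were the least variable, from 3.44 to 3.77, and 0 of 6 lay above the DN or the control median. In DN the highest ratios were those of DN 2 at 5.04 and DN 3 at 4.47, and in control that of control 2 at 4.61. The difference in treated against DN was −0.44 with all libraries and −0.085 without control 2, DN 2 and DN 3, and in treated against control it was −0.47 and −0.36. Since miR-125b-5p is made from hairpins on chromosomes 16 and 9, this ratio is not that of 1 hairpin. With both equal entries counted as guide, miR-125b-2-3p made up 3.92 ± 0.299% in treated, 3.09 ± 1.04% in DN and 2.92 ± 0.588% in control libraries.

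The passengers outside the 7 members came from a list of cluster neighbours and other arms. The log2 ratio of miR-99b-5p to miR-99b-3p was 6.42 ± 0.180 in treated, 6.37 ± 0.344 in DN and 6.43 ± 0.190 in control libraries, so the arms of this paralog, whose passenger has the seed of miR-99a-3p, differed between group means by at most 0.063. The log2 ratio of miR-125a-5p to miR-125a-3p was 6.47 ± 0.264 in treated, 6.2 ± 0.377 in DN and 6.10 ± 0.203 in control libraries, and all 6 treated libraries lay above the control median. The log2 ratio of miR-351-5p to miR-351-3p was 4.68 ± 0.585 in treated, 4.23 ± 0.549 in DN and 3.96 ± 0.539 in control libraries, 0.72 higher in treated than in control with 6 of 6 treated libraries above the control median, though the groups overlapped. Beside these stands the median difference of 0.18 in treated against control over the 129 hairpins. miR-125b-1-3p, the passenger from chromosome 9, ran from 4.40 to 14.0 CPM in treated, from 4.03 to 63.3 in DN and from 9.27 to 22.4 CPM in control libraries. The DN maximum was DN 2, with 435 counts against 15 to 61 in the other DN libraries. miR-100-3p was at 5 counts in DN 2, 6 in control 4 and 0 in the other 16 libraries, so the arms of miR-100 could not be compared.

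**Figure D3:**
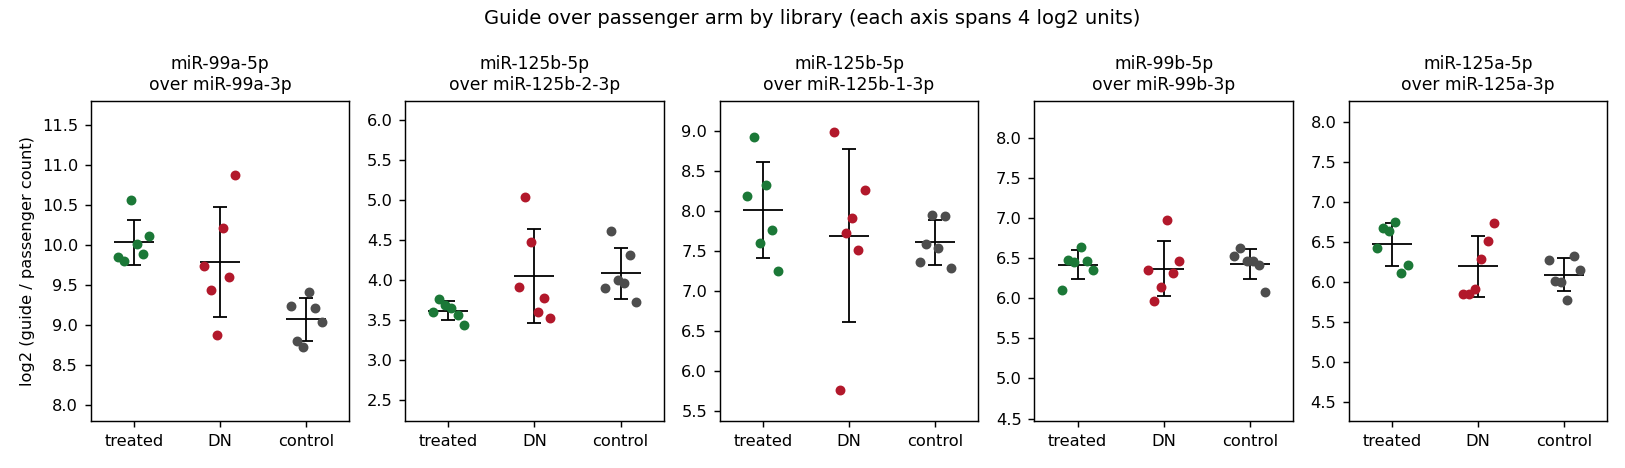
Log2 ratio of guide to passenger counts (y axis; each panel spans 4 log2 units, with 0.5 added to both counts) by library for 5 pairs of arms, treated, DN and control from left to right; points are libraries, wide bars means and error bars SD (n = 6 each). For miR-99a the 6 treated libraries lie above the 6 control libraries; miR-125b-1-3p has 1 DN library, DN 2, at 5.76.

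Of 14 listed neighbours, other arms and miR-351 arms, 13 stood in the table and 11 passed the filter, and 0 of 11 were called in either direction in each comparison (background 0%). With the equal entries of let-7a-5p and let-7c-5p counted once, the median log2FC of the remaining 10 was 0.0029 in DN against control, −0.21 in treated against DN and −0.41 in treated against control. In the same order, the fitted level was higher for 5, 3 and 4 of them and lower for 5, 7 and 6. Over all entries 56.5%, 42.2% and 49.8% were higher. The 10 include let-7a-1-3p, encoded at Mirlet7a-1 on chromosome 13, outside the 3 loci, with log2FC of 0.088, 0.46 and 0.55. The shared let-7a-5p and let-7c-5p entry was at 16760 ± 1905 CPM in treated, 20120 ± 7327 in DN and 23170 ± 3667 in control kidneys. However, let-7a-5p is also encoded at Mirlet7a-1 on chromosome 13 and let-7c-5p at Mirlet7c-2 on chromosome 15. This entry therefore does not report the loci on chromosomes 16 and 9 alone. let-7e-5p, the neighbour of miR-99b and miR-125a, was at 2074 ± 393 CPM in treated, 2631 ± 1355 in DN and 2785 ± 846 in control kidneys. All 6 treated libraries lay below the control median for let-7a-5p and let-7c-5p, and 5 of 6 for let-7e-5p. Values of these let-7 entries were not all whole (12377.95 counts for let-7e-5p in control 1). The rule for shared reads is not given, so the part of other let-7 names in them is not known. The DN means include DN 3, at 34800 CPM for the shared entry and 4896 CPM for let-7e-5p.

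Across the 18 libraries correlations between members ran from −0.20 to 0.86. Levels on the log2 CPM scale are used, the values share their library and its scaling, and the correlations are descriptions. The miR-99a-5p and miR-100-5p entry followed miR-125b-2-3p (Pearson r = 0.86, Spearman rho = 0.88), also with group means removed (r = 0.85) and without the 2 libraries farthest from the median, control 5 and treated 3 (r = 0.83). Its r was 0.057 with miR-99a-3p (rho = −0.059), the passenger of miR-99a, 0.076 with miR-125b-5p (rho = 0.10) and 0.078 with miR-99b-5p (rho = 0.10). Without control 2, DN 2 and DN 3 these were 0.061, 0.47 and 0.40. The entry does not separate miR-99a-5p from miR-100-5p, and miR-99a-3p rests on few reads. The r with miR-99a-3p therefore does not show whether the arms of the miR-99a hairpin vary together. miR-125b-2-3p in turn had r = −0.094 with miR-125b-5p (rho = 0.051), and r = 0.42 without control 2, DN 2 and DN 3. miR-99a-3p, at low counts, had its highest r among the members with miR-125b-5p (r = 0.62, rho = 0.62), which was 0.38 without control 2 and DN 6. The chromosome 17 guides miR-99b-5p and miR-125a-5p had r = 0.79 (rho = 0.67), which was 0.53 without control 2 and DN 3, and 0.48 without control 2, DN 2 and DN 3.

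**Figure D4:**
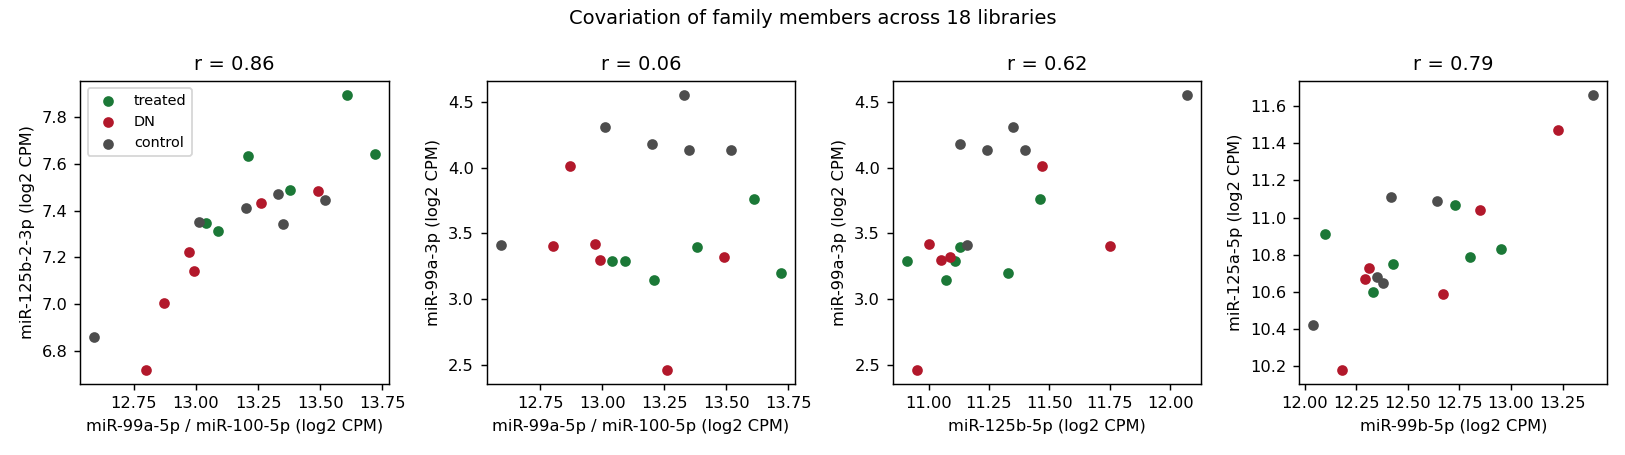
Log2 CPM of pairs of members in 18 libraries (treated, DN and control by colour), with Pearson r above each panel. The shared miR-99a-5p and miR-100-5p entry tracks miR-125b-2-3p (r = 0.86). Its r is 0.06 with miR-99a-3p, the passenger of miR-99a alone, which rests on 25 to 170 counts per library. miR-99b-5p and miR-125a-5p rise together (r = 0.79) with control 2 and DN 3 at the upper end.

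The entries outside the families with the most similar patterns were sought among 321 mouse names with a mean of at least 10 CPM, by Pearson r over 18 libraries. They were miR-10a-5p (r = 0.81), miR-3535 (0.75) and miR-143-3p (0.72) for the miR-99a-5p and miR-100-5p entry. For miR-125b-2-3p they were miR-30a-5p (r = 0.84), miR-10b-5p (0.79) and miR-30e-5p (0.77). For miR-99b-5p they were miR-191-5p (r = 0.92), miR-501-3p (0.90) and miR-744-5p (0.88), and for miR-125a-5p miR-423-3p (0.87), miR-423-5p (0.86) and miR-361-5p (0.86). For miR-125b-5p they were miR-676-3p (r = 0.91), miR-574-3p (0.87) and miR-181a-5p (0.86), and for miR-99a-3p let-7g-3p (0.77), let-7b-5p (0.77) and miR-345-5p (0.76). No name appeared for more than 1 of the 6 count sets. Each r here is among the 3 highest of 321 and is therefore biased upwards.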

How the data were processed

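Small RNA was sequenced from mouse kidney. Per the labels' protocols, RNA was extracted with Trizol, libraries were made with a TruSeq Small RNA kit, and reads were filtered with ACGT101-miR. Per the submitters' processing notes, Trimmomatic 0.32, BWA, SAMtools and edgeR were used; genome build, miRBase release and the rule for reads shared by several miRNAs: not given in the sources used here. In the deposited table the columns headed raw hold estimated counts, 75.7% of those above 0 being whole. The normalized columns of the deposited table hold a signal, whose median ratio to the raw values was 0.664 to 1.43 by library.

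Of 1534 entries, 350 without a name (0.0136% to 0.148% of a library) were left out. Estimated counts were rounded to whole numbers. edgeR 4.0.16 in R 4.3.3 (TMM, filterByExpr with minimum count 10 and total 15, legacy quasi-likelihood test, 2-sided, Benjamini-Hochberg over 619 entries, threshold 0.05) was fitted on all 18 libraries with group as the only factor, after a check on simulated data. SEs come from the fit's working weights, and a prior count of 2 entered log2 CPM. Arm ratios added 0.5 to both counts. Alternatives were DESeq2 1.42.0, limma 3.58.1 voom with sample weights, other scaling, filters and library sets, and a replicate block. In 45 pairs of libraries of 1 group chi-square per degree of freedom was at least 56.2, so none was counted as 1 sample. Intervals and depth cover counting and the spread between these libraries only.

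Members and lists were chosen with earlier results of these data known. All 7 members, the listed neighbours and arms, and for each member the 3 non-member mouse names of highest r were named. Of equal entries, 1 was used in medians and sign counts of members and lists, while the fit held all.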

Additional observations from a re-analysis of the deposited data

Results flagged for a closer look

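In groups of 6 libraries, 9 of 81 sets of values had 1 library far from the others. A share of about 5% would hold for independent, normally distributed sets. The CPM were not logged and many sets share counts, so no excess is read from the 9. Equal entries appear under both of their names. Control 2 was highest among controls for miR-99b-5p (10790 CPM, next 6370), miR-125b-5p (4313 CPM, next 2707) and miR-99b-3p (109 CPM, next 71.6). Control 5 was lowest among controls for miR-125b-2-3p (116 CPM, next 162). DN 3 was highest among DN libraries for the equal entries let-7c-5p and let-7a-5p (34800 CPM each, next 18830) and for miR-351-3p (22.9 CPM, next 11.3). DN 2 was highest for miR-125b-1-3p (63.3 CPM, next 13.3), and treated 5 among treated libraries for miR-99a-3p (13.1 CPM, next 10.2).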

How the results depend on the processing

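The list was chosen with the log2FC of miR-99a-3p against control known, so the member calls that follow describe the settings and support nothing. Of the members, only miR-99a-3p was called under any of the alternatives run. It was the 1 member called in DN against control by limma-voom and when control 2, DN 2 and DN 3 were left out, and the 1 member called in treated against control by limma-voom, by DESeq2, in the fit of only these 2 groups, and without control 2, DN 2 and DN 3; elsewhere 0 members were called. Over all entries, where the main count was 0, DN against control gave 2 with the stricter filter, 2 with each name counted once, 4 with DESeq2, 91 with limma-voom and 51 when control 2, DN 2 and DN 3 were left out, and treated against control gave 56 in the fit of only these 2 groups, 24 with DESeq2, 106 with limma-voom and 50 without those 3 libraries. Leaving out 1 library gave 0 to 6 entries in DN against control (6 without DN 2, 6 without DN 3, 1 without control 2) and 0 to 7 in treated against control (7 without DN 2, 3 without DN 3). The cause was not tested. Over 28 alternatives the log2FC of miR-99a-3p ranged from −0.95 to −0.61 in DN against control and from −1.03 to −0.68 in treated against control. That of miR-125b-2-3p ranged from 0.20 to 0.42 in treated against DN. With only library size used for scaling, the median of all entries moved by −0.14 in treated against DN and by −0.20 in treated against control, and 32.0% and 36.8% of entries were higher, against 42.2% and 49.8%.

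With the replicate block, 0 members and 0 entries were called in each comparison. Same-numbered libraries correlated at −0.33 to 0.26 after removal of group means, and 0 of 6 correlated best with their own number in any pair of groups. The median was 0.11 for the same number and −0.042 for other numbers in DN and control. In the other pairs of groups it was lower for the same number. No pairing by number was seen, though correlations this weak among 6 libraries cannot exclude it. Arm ratio differences moved by less than the spread of single libraries within groups under every alternative run. That SD was 0.456 for miR-99a and 0.392 for miR-125b-5p over miR-125b-2-3p, a wide margin for differences of means. Without control 2, DN 2 and DN 3 the miR-99a difference in treated against DN was −0.072. The miR-125b-2-3p one, −0.44 with all libraries, lost most of its size there, as given above. The planned sum of copies of 1 name that are not identical gave no value, since the copies were identical. With both identical miR-125b-5p entries summed instead, an alternative chosen after seeing the data, the miR-125a-5p share was 28.3% in treated, 27.1% in DN and 26.8% in control, and that of miR-125b-5p 71.7%, 72.9% and 73.2%, against 44.1%, 42.5% and 42.2% for miR-125a-5p and 55.9%, 57.5% and 57.9% for miR-125b-5p with copies counted once. Without control 2, DN 2 and DN 3, r was 0.48 for miR-99b-5p with miR-125a-5p, 0.35 for miR-99b-5p with miR-125b-5p, 0.53 for miR-99b-5p with miR-125b-2-3p and 0.42 for miR-125b-5p with miR-125b-2-3p, against 0.79, 0.72, 0.033 and −0.094 with all 18. Depth limits miR-99a-3p, at 25 to 170 counts per library, more than any other member.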
